A study of Homo sapiens with 8 samples.

Results

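The myogenic regulatory factors MYOD1, MYF5, MYF6 and MYOG and the MEF2 factors MEF2A, MEF2C and MEF2D were followed in Rh41 cells in which G9a had been knocked down. These 7 genes were taken by symbol from the 60234 genes of the deposited table, and each symbol had 1 row. Rh41, an established human line grown from an alveolar rhabdomyosarcoma, carries the PAX3-FOXO1 fusion. Tumours of this kind resemble developing skeletal muscle. Of 8 libraries, 4 were labelled control and 4 were labelled siG9a, and both groups were numbered 1 to 4. All libraries come from this 1 line, so the values describe Rh41 only. The sample labels name the knockdown siG9a, whereas the title of the study names it shG9a, and the control reagent and the time after knockdown are not given in the sources used here. The study calls its replicates biological, and the meaning of their numbers is not given. Levels are QuantSeq reads scaled to the total of the library (CPM), which come from the 3′ ends of polyadenylated RNA, so that a read stands for a transcript end and CPM were not divided by gene length.

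MYOD1 and MYF5 are the basic helix-loop-helix factors that commit cells to the muscle lineage, MYOG drives myoblasts into terminal differentiation, and MYF6 acts in differentiating and mature fibres. They bind a short DNA element, the E-box, as dimers with E proteins. MEF2 proteins are MADS-box factors that act together with them on muscle promoters, including that of MYOG. Rhabdomyosarcoma cells typically express MYOD1 without completing differentiation. G9a, the histone methyltransferase encoded by EHMT2, is reported to methylate the MYOD1 protein and to restrain differentiation, a modification that transcript levels do not show.

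The upstream sequences of MYOG, which was low beside abundant MYOD1, and of MYF5, which was not detected, are shown as examples of a window with both kinds of match and a window with an E-box only. Both are the 250 bases before the RefSeq start in GRCh38.p14, written 5′ to 3′ on the gene's strand. Capitals mark E-box matches (CANNTG, the same on both strands) and matches to a MEF2 core (TA, then 4 bases that are A or T, then TA, also the same on both strands). MYOG lies at chr1:203086013-203086262 on the minus strand and MYF5 at chr12:80716662-80716911 on the plus strand.
MYOG: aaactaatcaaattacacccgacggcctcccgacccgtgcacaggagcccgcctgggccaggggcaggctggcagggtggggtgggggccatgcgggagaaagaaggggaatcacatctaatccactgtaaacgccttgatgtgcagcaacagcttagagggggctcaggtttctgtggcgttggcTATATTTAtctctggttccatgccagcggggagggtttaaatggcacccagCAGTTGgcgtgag
MYF5: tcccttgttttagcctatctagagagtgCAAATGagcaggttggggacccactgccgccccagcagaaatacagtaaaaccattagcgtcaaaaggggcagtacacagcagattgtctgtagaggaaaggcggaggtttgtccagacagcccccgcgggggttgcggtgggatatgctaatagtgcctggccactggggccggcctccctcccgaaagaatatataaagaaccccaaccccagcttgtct
The MYOG window held the E-box CAGTTG beginning 13 bases before the start and the MEF2 core TATATTTA beginning 64 bases before it. The MYF5 window held the E-box CAAATG beginning 222 bases before the start and no MEF2 core. The window of MYF6, which was not above the read floor either, held a MEF2 core beginning 33 bases before the start and no E-box. RefSeq windows were found for 6 of the 7 genes, 14 windows in all because MEF2A and MEF2C have several starts. Of these, 7 held an E-box and 6 a MEF2 core. Among all 35116 RefSeq windows of 250 bases, 61.8% held an E-box and 7.79% a MEF2 core, so an E-box match is common in sequence of this length. Of the 14 windows, 11 belong to MEF2 genes and several are alternative starts of MEF2C, so the windows are not independent. Their counts were not tested against these shares. The MEF2 core pattern also takes plain runs of A and T, such as TATATATA in MYF6. A match describes letters and shows no binding.

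The 8 libraries held 1458825 to 1938665 reads assigned to genes, so 1 read was worth 0.516 to 0.685 CPM, and 3 reads, used as a floor, lay between 1.55 and 2.06 CPM. EHMT2 was lower in siG9a in 4 of 4 pairs of equal number, at 34.0% to 66.3% of the control library. Control libraries averaged 75.3 ± 15.0 CPM and siG9a libraries 36.6 ± 16.2 CPM (SD, n = 4). Limma gave an adjusted p of 0.191 without a block, called the unpaired fit here. In the paired fit, which has the replicate number as a block, it was 0.000472. The muscle markers DES, CDH15 and CHRNA1 were detected in every library, at 13.7 CPM or more. MYMK, the myoblast fusion factor, had at most 1 read in any library. Both libraries of number 3 stood apart from the others. On the neurofilament genes NEFL and NEFM both libraries of number 1 stood apart in the opposite direction. The 10 neural and epithelial marker genes summed to 9686 CPM in control and 8981 CPM in siG9a number 3, against 198 to 2082 CPM in the other control libraries and 249.7 to 2985 CPM in the other siG9a libraries. NEFM alone measured 8046 and 7625 CPM there. The epithelial markers were mixed in number 3. KRT18, at 46.1 and 29.1 CPM, and KRT8, at 11.1 and 12.0 CPM, were highest there in both groups. KRT19 was highest of the control libraries in number 3, at 14.1 CPM, but lowest of the siG9a libraries, at 1.71 CPM. CDH1 was not raised there, at 4.3 and 1.14 CPM, and EPCAM had 0 reads in both. In number 1 NEFM measured 156 and 182 CPM, against 1562 to 2498 CPM in numbers 2 and 4, and NEFL measured 27.4 and 36.1 CPM. The neural markers INA and STMN2 had at most 10 reads in any library and were not lowest in number 1. The summed level of the 8 fibroblast markers was 118 and 51.95 CPM in number 3 against 262 to 409 and 145.9 to 323 CPM elsewhere. Most of the difference in this sum came from COL3A1, at 54.7 and 38.8 CPM in number 3 against 210 to 341 and 120 to 257 CPM elsewhere. COL1A1 was the highest of the control libraries in number 3, at 55.3 CPM, but the lowest of the siG9a libraries, at 11.99 CPM. DCN, LUM and THY1 were at or under 2 reads in every library.

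MYOD1 was by far the most abundant of the 7 transcripts, MEF2C followed, and MYF5 and MYF6 were not detected above the floor. Over the 8 libraries the means were 628 ± 329 CPM for MYOD1, 95.4 ± 47.0 CPM for MEF2C, 27.03 ± 10.2 CPM for MEF2A, 19.4 ± 8.31 CPM for MEF2D and 5.76 ± 3.81 CPM for MYOG (SD, n = 8). MYOD1 ranked 179 among the 15092 genes tested by its mean level, and MYOG ranked 10477. MYOD1 exceeded MEF2C in 8 of 8 libraries. MEF2C exceeded MEF2A in 7 of 8, the exception being control number 3. MEF2A and MEF2D were neighbours that did not differ beyond their spread, with MEF2A higher in 6 of 8 libraries. MEF2D exceeded MYOG in 8 of 8.

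MYF5, which acts beside MYOD1 in muscle commitment, had 0 reads in all 8 libraries, which allows up to 1.55 to 2.06 CPM per library. MYF6 had 3 reads in all, 1 each in control number 4, siG9a number 2 and siG9a number 4, so no fold is given for either gene. MYOD1 therefore supplied 96.3% to 99.7% of the reads of the 4 myogenic factors in every library, and MYOG amounted to 0.199% to 3.87% of MYOD1. Of the reads of MEF2A, MEF2C and MEF2D, MEF2C made up 63.5 ± 16.04% in control libraries and 66.9 ± 8.24% in siG9a libraries (SD, n = 4). Its lowest share, 41.0%, was in control number 3, where MEF2A made up 46.8%.

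None of the 7 genes passed the test for a change with G9a knockdown. The unpaired limma fit on log2(CPM + 1), adjusted over all 15092 genes tested, called 0 of the 5 members whose mean reached 1 CPM, and 0% of all genes. The paired fit called 0 of 5 members against 11.4% of all genes (1717 of 15092). Without number 3 it also called 0 of 5, against 7.14% of all genes. At an unadjusted p under 0.05, 0 of the 5 passed in the unpaired fit, against 12.5% of all genes. In the paired fit 2 of the 5 did, MEF2C and MEF2D, against 25.5% of all genes. Paired fits of recovered reads by edgeR, which called 11.3% of all genes, and by DESeq2, which called 6.42%, called 0 of them too. DESeq2 gave MYOG no adjusted p. The siG9a values overlapped the control values for all 5, while 7.32% of all genes tested had no overlap. The exact permutation p given for each of these 5 genes is two-sided and not adjusted.

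**Figure D1:**
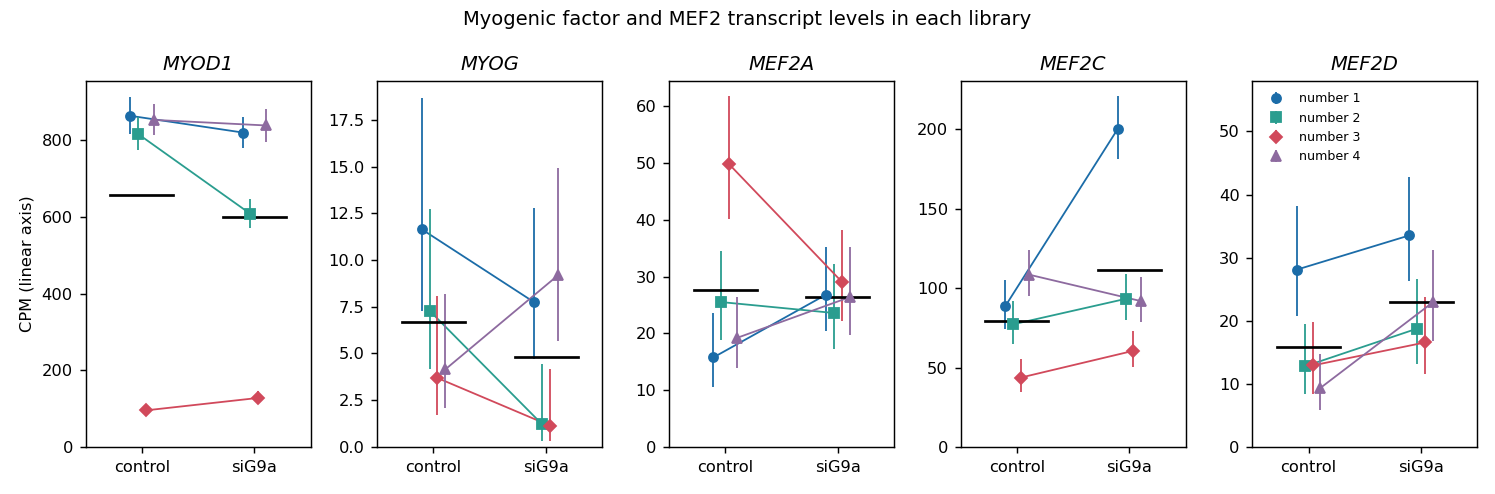
CPM of the 5 detected myogenic factor and MEF2 genes (linear axes from 0) in 4 control and 4 siG9a libraries; lines join libraries of equal number, error bars are 95% Wilson intervals of the read count, and black bars are group means. MYOD1 is near 100 CPM in both libraries of number 3 (95.3 and 128 CPM) and at 608 CPM or more elsewhere.

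MYOD1, the lineage factor, measured 864, 817, 95.3 and 854 CPM in control numbers 1 to 4. In siG9a it measured 821, 608, 128 and 839 CPM. Within each group 3 libraries lay close together and number 3 was far lower, so the groups overlapped over their whole range. The siG9a value was 94.9%, 74.4%, 134% and 98.3% of the control library of the same number, lower in 3 of 4 pairs. Control libraries averaged 658 ± 375 CPM and siG9a libraries 599 ± 331 CPM (SD, n = 4). In the unpaired limma fit the log2 change was −0.03 ± 0.73 (SE; adjusted p = 0.993), and the exact permutation p was 0.80. Its 95% interval ran from 0.329-fold to 2.93-fold. The paired fit gave the same change with an SE of 0.15 (adjusted p = 0.935) and a 95% interval from 0.798-fold to 1.21-fold.

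The spread of MYOD1 came mostly from the libraries of number 3. Control number 3 was at 11.3% of the mean of the other control libraries, and siG9a number 3 at 16.9% of the mean of the other siG9a libraries. MYOD1 was the 1 gene of the 5 tested that lay at least 4-fold lower in number 3 in both groups, which held for 0.855% of all genes tested. Without number 3, MYOD1 averaged 845 ± 24.7 CPM in control libraries and 756 ± 128 CPM in siG9a libraries (SD, n = 3), and limma gave adjusted p = 0.732 unpaired and 0.615 paired. Some neural, epithelial and fibroblast markers differed in the same libraries, and their part in the MYOD1 values was not tested. In these bulk libraries, fewer cells that express MYOD1 and less MYOD1 RNA per cell cannot be told apart.

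MYOG, the factor of terminal differentiation, measured 11.7, 7.29, 3.69 and 4.15 CPM in control numbers 1 to 4, from 17, 12, 6 and 8 reads. In siG9a it measured 7.74, 1.21, 1.14 and 9.18 CPM, from 15, 2, 2 and 16 reads. The siG9a libraries of numbers 2 and 3 were under the floor of 3 reads, and siG9a number 4 was above all control libraries but number 1. MYOG was lower in siG9a in numbers 1, 2 and 3 and higher in number 4. MYOG had a log2 change of −0.65 ± 0.59 (SE) by limma (adjusted p = 0.706 unpaired, 0.370 paired; exact permutation p = 0.343). The 95% interval of the paired fit ran from 0.346-fold to 1.18-fold, and no change was detected. The 95% counting intervals of siG9a number 2 (0.332 to 4.41 CPM) and siG9a number 4 (5.65 to 14.9 CPM) did not overlap. The parts of depth and of spread between libraries in this result were not tested.

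MEF2A, the most widely expressed of the MEF2 genes in adult tissues, measured 15.8, 25.5, 49.8 and 19.2 CPM in control and 26.8, 23.6, 29.1 and 26.4 CPM in siG9a. Control number 3 was the highest library, and the 4 siG9a libraries lay within 23.6 to 29.1 CPM. The limma log2 change of MEF2A was 0.08 ± 0.33 (SE; adjusted p = 0.953 unpaired, 0.887 paired; exact permutation p = 0.886). The paired 95% interval in log2 ran from −0.43 to 0.58. MEF2A was higher in 2 of 4 pairs. The other-strand gene LYSMD4 overlaps its end in GENCODE 29 and was at 1.23 CPM or less in every library.

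MEF2C, the MEF2 gene that appears earliest in muscle development, measured 88.4, 77.2, 43.7 and 109 CPM in control. In siG9a it measured 200.1, 93.2, 60.5 and 91.8 CPM. The siG9a library of number 1 stood above the other 7, and number 3 was the lowest of both groups. MEF2C was higher in 3 of 4 pairs, at 226%, 121% and 139% of control in numbers 1 to 3 and at 84.6% in number 4. Unpaired, limma put MEF2C at a log2 change of 0.42 ± 0.36 (SE; adjusted p = 0.695; exact permutation p = 0.400). Paired, the SE was 0.19, the unadjusted p 0.0358 and the adjusted p 0.160. This value rested on single pairs: without number 4 the paired fit called MEF2C (log2 change 0.63, adjusted p = 0.041), and without number 1 the log2 change was 0.16 (adjusted p = 0.697). The part of the low NEFL and NEFM levels of number 1 in the MEF2C values was not tested.

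MEF2D, which is expressed both in dividing myoblasts and in differentiated muscle, was the 1 gene of the 7 that was higher in 4 of 4 pairs. It measured 28.1, 12.8, 12.9 and 9.35 CPM in control and 33.5, 18.8, 16.6 and 22.9 CPM in siG9a. Control number 1 lay above 3 of the 4 siG9a libraries, so the groups overlapped. The siG9a value was 119%, 147%, 128% and 245% of the control library of the same number. For MEF2D the unpaired limma log2 change was 0.58 ± 0.36 (SE; adjusted p = 0.552; exact permutation p = 0.171). In the paired fit the SE was 0.26, the unadjusted p 0.0344 and the adjusted p 0.156, so MEF2D did not pass. The paired 95% interval, not adjusted over genes, ran from 1.03-fold to 2.16-fold. With 1 number left out at a time, the paired limma log2 change ran from 0.37 to 0.69 and the adjusted p from 0.203 to 0.437.

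**Figure D2:**
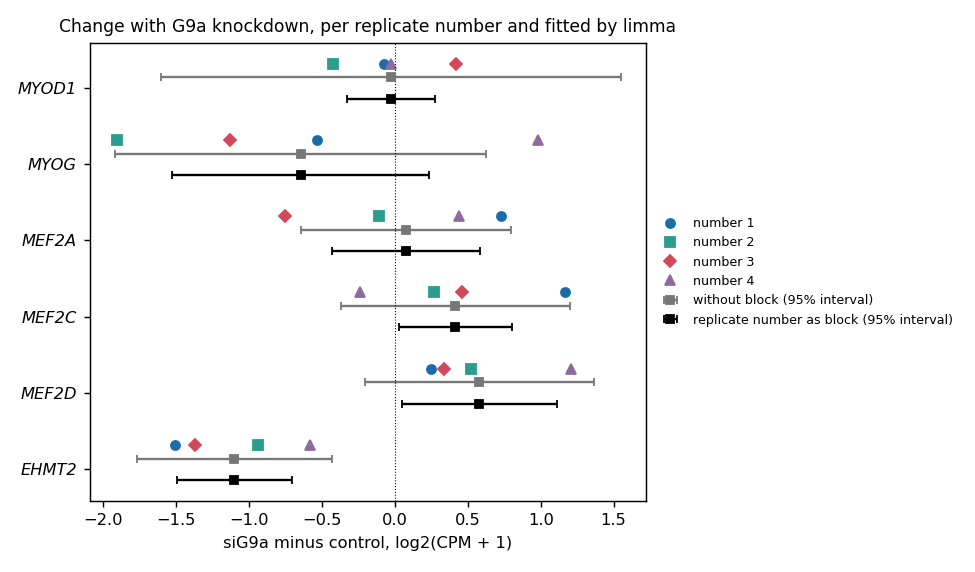
Difference siG9a minus control on the log2(CPM + 1) scale for 5 genes and EHMT2: coloured symbols are pairs of equal replicate number, squares with bars are limma estimates with 95% intervals of the unpaired (grey) and paired (black) fits. MEF2D is above 0 in 4 of 4 pairs, EHMT2 below 0 in 4 of 4, and the MYOD1 interval is much narrower in the paired fit.

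Muscle genes known as targets of these factors were described from a list of 37. Of these, 31 reached the filter of 1 CPM, and in the paired limma fit 14 fell and 0 rose, against 6.52% lower and 4.86% higher among all genes tested. The unpaired fit called 0 of 31, and 14 had an unadjusted p under 0.05, against 12.5% of all genes. These were not all the same genes as the 14 called in the paired fit: MB, MYH3 and SMYD1 were among them, and ACTC1, ENO3 and CDH15 were not. The 17 targets not called in the paired fit had an adjusted p under 0.05 in neither fit. The median log2 change of the 31 was −0.76, where the median over all genes tested was 0.01. The list overlaps genes already known to be lower in these libraries, so its direction is no independent evidence. Without number 3 the paired fit called 14 of them lower and 0 higher, against 4.59% lower and 2.56% higher among all genes. Paired edgeR called 13 of them lower, against 6.59% lower and 4.75% higher among all genes.

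ACTC1, the cardiac alpha-actin made in embryonic muscle, fell in 4 of 4 pairs, from 880, 688, 87.3 and 1021 CPM to 321, 166, 19.4 and 365 CPM. The paired limma log2 change of ACTC1 was −1.77 ± 0.15 (SE; adjusted p = 2.46e-08 paired, 0.450 unpaired). MYL4, an embryonic myosin light chain, measured 77.5, 57.1, 11.1 and 56.1 CPM in control and 2.58, 2.42, 0.57 and 5.74 CPM in siG9a, with no overlap between the groups. TNNI1, the slow troponin I, fell from 147 ± 88.8 to 19.8 ± 6.22 CPM and TNNT2, the cardiac troponin T of embryonic muscle, from 294 ± 163 to 74.4 ± 26.9 CPM (SD, n = 4). DES, the muscle intermediate filament desmin, fell from 189 ± 94.5 to 63.8 ± 60.0 CPM (SD, n = 4). MYBPH, a myosin-binding protein, fell from 20.8 ± 8.55 to 2.08 ± 3.09 CPM (SD, n = 4), with siG9a number 4 at 0 reads. The adhesion gene CDH15 (M-cadherin) had a log2 change of −1.20 ± 0.17 and the acetylcholine receptor subunit CHRNA1 of −1.15 ± 0.17 (SE). All 8 were lower in 4 of 4 pairs, and their limma adjusted p ranged from 2.46e-08 to 7.52e-05 in the paired fit and from 0.0709 to 0.508 in the unpaired fit. The other 6 targets called lower were ENO3, MYLPF, MUSK, MYMX, CAV3 and ATP2A1, and MYMX alone among the 14 was lower in 3 of 4 pairs rather than in 4. In number 3 the targets summed to 1524 CPM in control and 1559 CPM in siG9a, against 6919 to 7942 CPM in the other control libraries and 4414 to 5046 CPM in the other siG9a libraries. Whether the marker differences of number 3 bear on these sums was not tested.

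Other targets in the list gave no call beside these. TNNT1, the slow troponin T and the most abundant of the list, was named after its values were seen. It measured 3244, 3107, 675 and 3112 CPM in control and 2609, 2337, 836 and 2581 CPM in siG9a, and did not pass (log2 change −0.17 ± 0.15 (SE), paired limma adjusted p = 0.517). Its libraries of number 3 were low in both groups, as for MYOD1. The siG9a values were below all control values for 7 of the 31 targets, against 3.45% of all genes, and above them for 1, against 3.88%. The latter was SMYD1, a muscle methyltransferase, which had at most 5 reads in any library.

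**Figure D3:**
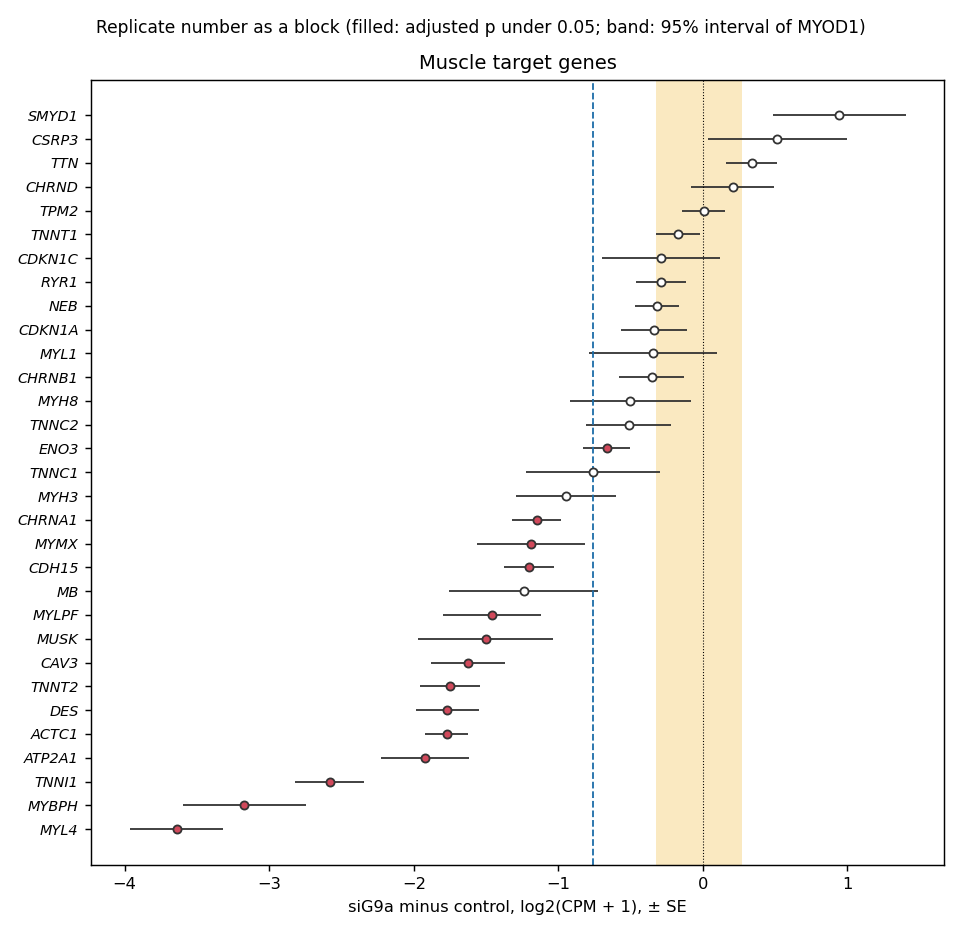
Paired limma log2 change (siG9a minus control, ± SE) for the 31 target genes tested; filled points have an adjusted p under 0.05, the dashed line is the list median and the band is the 95% interval of MYOD1. The filled target genes, 14 in all, lie left of the MYOD1 band.

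Partners and regulators of the myogenic factors and MEF2 were taken from a list of 32, of which 28 were tested. The paired fit called 7, 2 higher and 5 lower, against 4.86% higher and 6.52% lower among all genes. The unpaired fit called 0, and 4 had an unadjusted p under 0.05, against 12.5% of all genes. Their median log2 change was −0.16. Among the E proteins, the dimer partners of MYOD1, TCF3 measured 97.0 ± 3.68 CPM in control libraries and 90.7 ± 8.97 CPM in siG9a libraries (SD, n = 4; paired limma adjusted p = 0.747). TCF12 measured 85.0 ± 38.5 and 65.9 ± 31.3 CPM (SD, n = 4) and did not pass either (paired limma adjusted p = 0.237). TCF4 fell in 4 of 4 pairs, from a mean of 148 ± 30.4 to 90.1 ± 42.7 CPM (SD, n = 4; limma adjusted p = 0.0029 paired, 0.304 unpaired). Its call was lost in the paired fit without number 2 (adjusted p = 0.071).

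Of the 3 listed ID genes, whose proteins bind E proteins and keep them from pairing with MYOD1, ID1 and ID3 rose. ID1 measured 83.6, 48.0, 10.5 and 71.1 CPM in control and 142.4, 89.6, 18.8 and 142 CPM in siG9a. ID3 measured 234, 118, 57.8 and 123 CPM in control and 463, 197, 74.2 and 329 CPM in siG9a. Both were higher in 4 of 4 pairs. ID1 rose by 0.86 ± 0.17 in log2 (SE; limma adjusted p = 0.00185 paired, 0.663 unpaired) and ID3 by 0.87 ± 0.16 (0.000886 paired, 0.530 unpaired). Control number 3 and siG9a number 3 were the lowest libraries of both genes. ID2 measured 38.9 ± 26.4 and 50.9 ± 16.8 CPM (SD, n = 4) and did not pass (paired limma adjusted p = 0.102). MDFI, an inhibitor that binds myogenic factors directly, fell in 4 of 4 pairs, with means of 84.6 ± 54.1 and 44.2 ± 29.9 CPM (SD, n = 4; limma adjusted p = 0.00369 paired, 0.619 unpaired).

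ZEB1 and VGLL2 were lower in 4 of 4 pairs. ZEB1, a repressor that also binds E-box sequences, fell by 1.69 ± 0.20, and VGLL2, a muscle cofactor of TEAD proteins, by 1.53 ± 0.25 on the log2 scale (SE). In that order, the limma adjusted p was 4.84e-06 and 0.000219 paired, and 0.114 and 0.387 unpaired. BHLHE41, a repressor of MYOD1 activity, had at most 3 reads in any library and lay below the filter. Of the class IIa deacetylases that repress MEF2, HDAC9 had at most 6 reads in any library and did not pass (paired limma adjusted p = 0.637). The other members of that class in the list, named after their values were seen, were more abundant. HDAC7 averaged 477 ± 193 and 455 ± 275 CPM in control and siG9a libraries, HDAC5 31.8 ± 5.46 and 25.3 ± 8.12 CPM, and HDAC4 15.3 ± 4.46 and 12.8 ± 5.05 CPM (SD, n = 4). None of the 3 passed (paired limma adjusted p = 0.647, 0.339 and 0.569).

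Genes with the most similar profiles were sought by the mean absolute difference of log2(CPM + 1), each gene centred on its own mean, over the 8 libraries and 8897 genes averaging 10 CPM or more. For MYOD1 these were PREX1 (0.128), SORCS1 (0.178) and TMTC1 (0.206), against a median of 1.08 over all genes compared. PREX1 measured 67.2, 50.4, 8.61 and 57.1 CPM in control and 63.96, 47.2, 8.56 and 63.1 CPM in siG9a, low in the libraries of number 3 like MYOD1. For MEF2A the nearest were SNHG17 (0.123), SAAL1 (0.132) and MFSD3 (0.139), all highest in control number 3. For MEF2C they were MEX3C (0.136), SUPT20H (0.145) and PCID2 (0.152), which peaked in siG9a number 1. For MEF2D they were TRAF4 (0.138), BRF2 (0.145) and MARCKSL1 (0.153), which peaked in the same library. The median over all genes compared was lower for these members than for MYOD1, at 0.462 for MEF2A, 0.5555 for MEF2C and 0.594 for MEF2D. MYOG was below 10 CPM and was not compared. With 8 libraries and so many genes, a near profile is a description of these libraries.

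**Figure D4:**
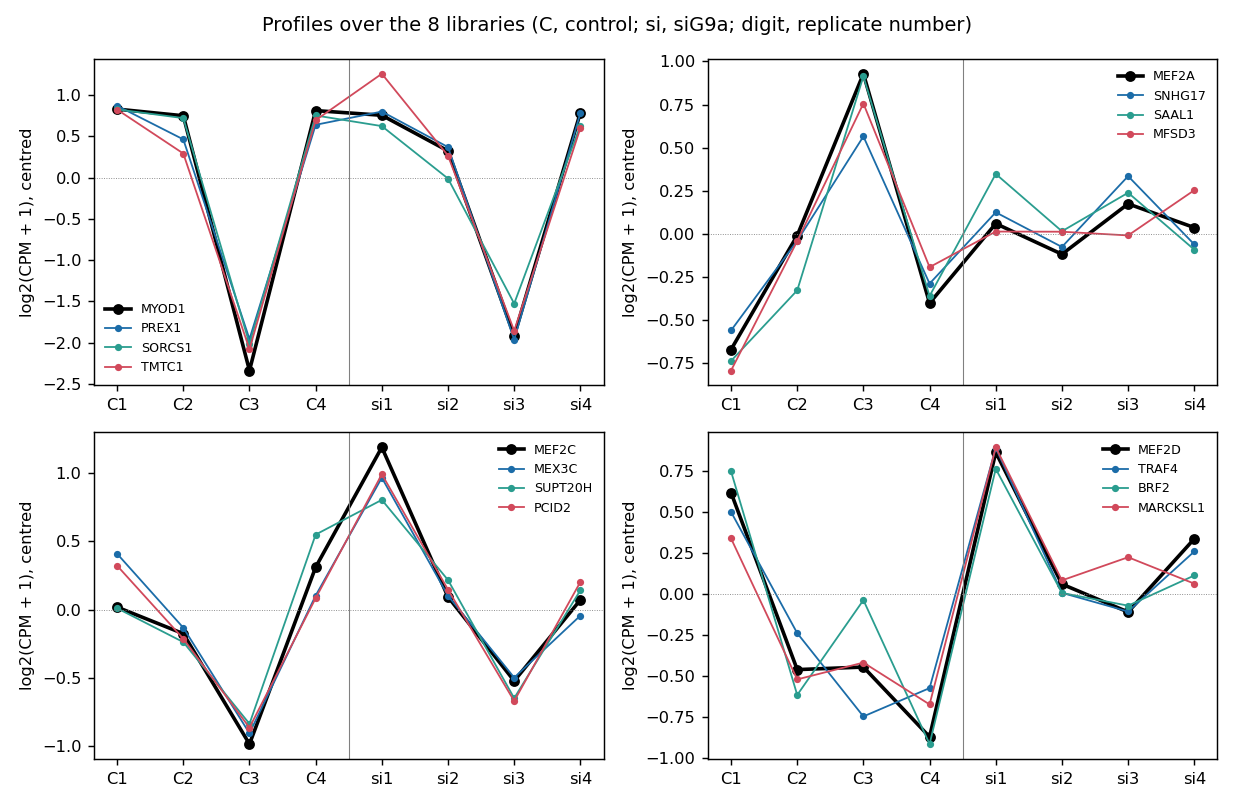
Centred log2(CPM + 1) of MYOD1, MEF2A, MEF2C and MEF2D (black) and of the 3 genes nearest to each (colours) over the 4 control (C) and 4 siG9a (si) libraries. The MYOD1 panel is set by the low libraries of number 3; in the MEF2C and MEF2D panels the member's highest library is siG9a number 1.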

How the data were processed

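The deposited table holds CPM to 2 decimals, which the authors scaled to the reads assigned to genes in each library. The submitters' processing notes list FastQC 0.11.8, Trim Galore, STAR 2.5.0a, HTSeq 0.8.0 and edgeR 3.28, and both GRCh38 and hg19, with no role or order. The strand setting and annotation are not given in the sources used here, so reads of overlapping genes cannot always be parted. In each library 100% of the CPM values above 0 came out as whole reads, within the rounding of 0.005 CPM. These recovered reads were used for intervals and count tests. Intervals and floors cover counting error only.

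The main test was limma 3.58.1 (R 4.3.3) on log2(CPM + 1), lmFit and eBayes with trend, two-sided, for genes averaging 1 CPM or more across the 8 libraries, with Benjamini-Hochberg adjustment and a threshold of 0.05. The pseudocount makes fold changes of low genes too small. A fit with the replicate number as a block is given beside it. Libraries of equal number deviated together from their group means for numbers 1 and 3, and only weakly for numbers 2 and 4 (correlation across 15092 genes 0.500, 0.104, 0.673 and 0.130 for numbers 1 to 4). The numbers were taken as pairs, which comes from the sample titles and the data. For numbers 1 and 3 the libraries of equal number were each other's best match in both directions, but control 2 correlated best with siG9a 4 and siG9a 4 with control 2. The pairs of numbers 2 and 4 therefore rest on the titles more than on the data, and all paired results depend on them. Where the labels do not say that samples were separate cultures, p-values measure the spread between samples. edgeR 4.0.16 (0 genes called without and 1711 with the block) and DESeq2 1.42.0 were run on recovered reads. The members and gene lists were chosen with earlier results of these data known. Named list genes were up to 8 per list by smallest adjusted p among those called (in the fit with the block, since the other called none), and 8 fixed regulators; 1 called partner is not reported here. On simulated reads for siG9a against control, the fits were tested: of 200 genes changed by 1.5 in log2 among 15111, limma recovered 53% without and 100% with the block. The simulated libraries of equal number shared their means, so the pairing was built in and the gain with the block was set in advance. The simulation therefore cannot show how well the pairing holds in these data. Promoter windows are from RefSeq, GRCh38.p14, and gene overlaps from GENCODE 29.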

Additional observations from a re-analysis of the deposited data

Results flagged for a closer look

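For each described gene, the gap between its most extreme library and the next one was compared with the whole range of the 4 libraries (Dixon's test). Of 50 groups tested, 4 had such a library. Chance would give about 1 in 20, or 2.5 groups, if the groups were independent. They share the same 8 libraries, so no conclusion is drawn from this count. All 4 were control number 3. MYOD1 was at 95.3 CPM there, with the other control libraries between 817 and 864 CPM. ZEB1 was at 92.9 CPM (others 232 to 248 CPM) and DES at 47.4 CPM (others 226 to 248 CPM). HDAC9 was the 1 high value flagged, at 3.69 CPM from 6 reads, with 0 CPM in the others. Equal values in the others set the ratio to its maximum whatever the size of the gap. BHLHE41, at 1.84 CPM in control number 3 and 0 CPM in the other control libraries, has the same pattern and is not among the 4.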

How the results depend on the processing

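The count of genes called by limma was 0 without the block and 1717 with the replicate block. Without a filter it was 18, with DESeq2 on recovered reads 291, with edgeR and the replicate block 1711, and with DESeq2 and the replicate block 969. Leaving out libraries gave 0 to 413 calls without the block (300 without control number 3, 413 without both libraries of number 3) and 668 to 1393 with the replicate block (951 without number 1, 1078 without number 3). Fewer libraries enter those fits, and the cause of the other differences was not tested. MYOD1, MYOG, MEF2A and MEF2D were not called under any alternative that gave an adjusted p. MYOD1 had no stable direction: its log2 change ran from −0.81 (without control number 3) to 0.61 (without siG9a number 3), and was 0.11 with the replicate block and without number 2. MEF2A ran from −0.14 to 0.40 and was −0.057 with edgeR and −0.074 with DESeq2, both without the block, and −0.044 with the replicate block and without number 4. MEF2C ran from 0.09 to 0.66, and was called in 1 fit with the block, without number 4 (0.63). The median of the partners list ran from −0.32 (without control number 3) to 0.027 (without siG9a number 3) and was −0.026 with the replicate block and without number 4. The median of the targets list was −1.07 with a pseudocount of 0.1 and −0.43 with a pseudocount of 5, and ran from −1.14 to −0.62 over the fits with libraries left out. With all 8 libraries, the replicate block changed no call of the 5 genes tested. Median-ratio scaling moved the median of all genes by −0.01. Counting error weighs most on MYOG, MYF5 and MYF6, which had the fewest reads of the members.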
